A study of Mus musculus with 6 samples.

Results

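The genes described here encode the main enzymes of the neutrophil primary granule, namely myeloperoxidase (Mpo), neutrophil elastase (Elane), proteinase 3 (Prtn3) and cathepsin G (Ctsg). They were chosen by name from the Symbol column of the deposited normalized table, and all 4 were found there and, by gene identifier, among the 27179 genes of the count table. Long-term hematopoietic stem cells (LT-HSCs, CD150+CD48-LSK) were sorted from the BM of C57BL/6 mice at 8 weeks of age, and 3 WT libraries were compared with 3 Foxm1 heterozygous (Foxm1 HET) libraries. The Foxm1 HET group carries the genotype label Foxm1 heterozygous, and its titles name a floxed Foxm1 allele over a normal one. The methods generate heterozygous mice with Tie2-Cre, a driver active in endothelial and blood cells, or with inducible Mx1-Cre, and the RNA-Seq section names no driver, although the name Foxm1 HET is given to Tie2-Cre mice in another section of the methods. In other assays of the study, mice with the floxed allele and no Cre serve as the WT group. The question put to the data was whether the loss of 1 Foxm1 allele altered the stem cell transcriptome, here at 4 genes of the granulocyte program.

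Primary (azurophil) granules form at the promyelocyte stage, and their transcripts are a hallmark of granulocyte-monocyte progenitors. Elastase, proteinase 3 and cathepsin G are related serine proteases that are made as inactive precursors, trimmed by the dipeptidyl peptidase Ctsc and stored on the proteoglycan serglycin (Srgn). Myeloperoxidase is a heme enzyme that makes hypochlorous acid from hydrogen peroxide supplied by the NADPH oxidase. Low levels of these transcripts are known in multipotent progenitors, and the transcription factors PU.1 (Spi1), C/EBPα, Runx1, Myb and Gfi1 are known to act on their genes.

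Elane and Prtn3 are neighbours on chromosome 10, Mpo lies on chromosome 11 and Ctsg on chromosome 14 of GRCm38. Elane spans 79886312 to 79888216 and Prtn3 79879667 to 79883174, both on the plus strand with 5 exons, and 3137 bases part them. Mpo has 14 exons between 87793784 and 87804412 on the plus strand, and Ctsg has 5 between 56099881 and 56102574 on the minus strand. The 250 bases before each annotated start, taken from the RefSeq promoter table of GRCm38.p6, are shown so that the neighbours Elane and Prtn3, whose reads were spread differently over the genotypes, can be compared in sequence. Capitals mark matches on either strand to any of 6 motifs. The letters searched were GAGGAA for the PU-box that PU.1 binds and TGTGGT for RUNX factors. Those for the C/EBP family were TTGCNNAA, and those for MYB were AACGG. The forkhead family, to which Foxm1 belongs, was searched with TAAACA, and the TATA box with TATAAA.
Mpo, chr11:87793534-87793783, plus strand: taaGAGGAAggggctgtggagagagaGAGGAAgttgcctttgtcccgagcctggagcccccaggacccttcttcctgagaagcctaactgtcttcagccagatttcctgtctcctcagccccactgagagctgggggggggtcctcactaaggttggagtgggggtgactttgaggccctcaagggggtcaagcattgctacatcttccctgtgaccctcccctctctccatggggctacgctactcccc
Elane, chr10:79886062-79886311, plus strand: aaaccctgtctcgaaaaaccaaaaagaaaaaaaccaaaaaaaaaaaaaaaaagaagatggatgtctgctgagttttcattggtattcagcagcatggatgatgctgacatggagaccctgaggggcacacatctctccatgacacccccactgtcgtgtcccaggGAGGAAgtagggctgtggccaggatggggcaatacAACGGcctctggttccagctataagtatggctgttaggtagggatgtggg
Prtn3, chr10:79879417-79879666, plus strand: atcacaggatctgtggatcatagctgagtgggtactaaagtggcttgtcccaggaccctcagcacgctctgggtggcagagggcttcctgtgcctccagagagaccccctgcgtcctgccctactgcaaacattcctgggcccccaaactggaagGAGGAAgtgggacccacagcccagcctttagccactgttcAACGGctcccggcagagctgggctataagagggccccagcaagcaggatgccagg
Ctsg, chr14:56102575-56102824, minus strand: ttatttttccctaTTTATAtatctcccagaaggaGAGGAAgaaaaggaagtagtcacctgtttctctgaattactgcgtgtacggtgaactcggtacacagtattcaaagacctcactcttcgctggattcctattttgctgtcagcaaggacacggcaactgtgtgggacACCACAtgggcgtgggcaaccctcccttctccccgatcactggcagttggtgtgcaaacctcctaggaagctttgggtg

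The PU-box letters stood in all 4 windows, against 23.3% of the 32851 RefSeq promoter windows of the same length. Elane and Prtn3 had the same order of matches, with GAGGAA beginning 85 and 95 bases and AACGG 50 and 55 bases before the start. AACGG was found in 14.5% of all windows. Mpo held GAGGAA at 247 and 224 bases before its start and no other match. Ctsg held GAGGAA at 216 bases and, both on the opposite strand, the RUNX letters at 79 bases and the TATA letters at 237 bases. The RUNX and TATA letters occurred in 14.05% and 12.4% of all windows. Only exact letters were marked. The letters tataag near the end of both the Elane and the Prtn3 window, a near match to TATAAA, therefore stay in lower case. The C/EBP and forkhead letters, in 9.56% and 12.03% of all windows, were not in these windows. The matches do not overlap each other, and they are descriptions of sequence only.

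Library totals ran from 14573002 to 25798509 counted reads, and the genes with at least 10 reads from 4467 to 9894, both lowest in Foxm1 HET replicate 2. Foxm1 itself was counted 1182, 2615 and 2942 times in WT and 659, 5 and 742 times in Foxm1 HET, lower in every Foxm1 HET library. Its log2 fold change was -3.30 with a standard error of 2.33, and the adjusted p was 0.961 by edgeR's quasi-likelihood test. Of 12 LT-HSC markers, all had reads in at least 1 library, but 5 had at most 3 reads in some library. Slamf1, which encodes the sorting marker CD150, drew 2, 1572 and 0 reads from WT replicates 1 to 3 and 8, 0 and 543 from Foxm1 HET replicates 1 to 3. Ly6a, which encodes the sorting marker Sca-1, drew 125, 4 and 2 reads from WT and 2261, 2 and 1597 from Foxm1 HET. The sorting marker gene Kit had at least 10720 reads in every library. The methods speak of 3 pairs of mice, and the labels do not tie a library to an animal, so the p-values measure the spread between libraries.

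Of the 4 genes, Prtn3 alone had libraries that did not overlap between genotypes, with more reads in each Foxm1 HET library than in any WT library. With libraries scaled to a common size, 8.68% of all genes tested did not overlap in either direction, 4.12% with higher values in Foxm1 HET. Mpo was the most abundant in all 6 libraries and its genotype means differed by less than the spread between libraries. Elane had a lower and Ctsg a higher mean in Foxm1 HET, and each varied more within a genotype than between them. By the quasi-likelihood test of edgeR, 0 of the 4 passed an adjusted p of 0.05, which 0.329% of the 8195 genes tested passed (0.317% with higher values in Foxm1 HET). At an unadjusted p of 0.05, 0 of the 4 passed, against 6.03% of all genes (3.44% higher). DESeq2 called 1 of the 4, Prtn3, against 2.37% of all genes (1.42% higher). The median log2 fold change of the 4 was 0.59, beside -0.26 over all genes, with 3 higher and 1 lower. The 3 include Mpo at 0.05 (standard error 1.17). Without Foxm1 HET replicate 2, Mpo was at -1.81 and Ctsg at -0.90. In RNA from sorted populations, more cells of a kind and more RNA per cell cannot be told apart.

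**Figure D1:**
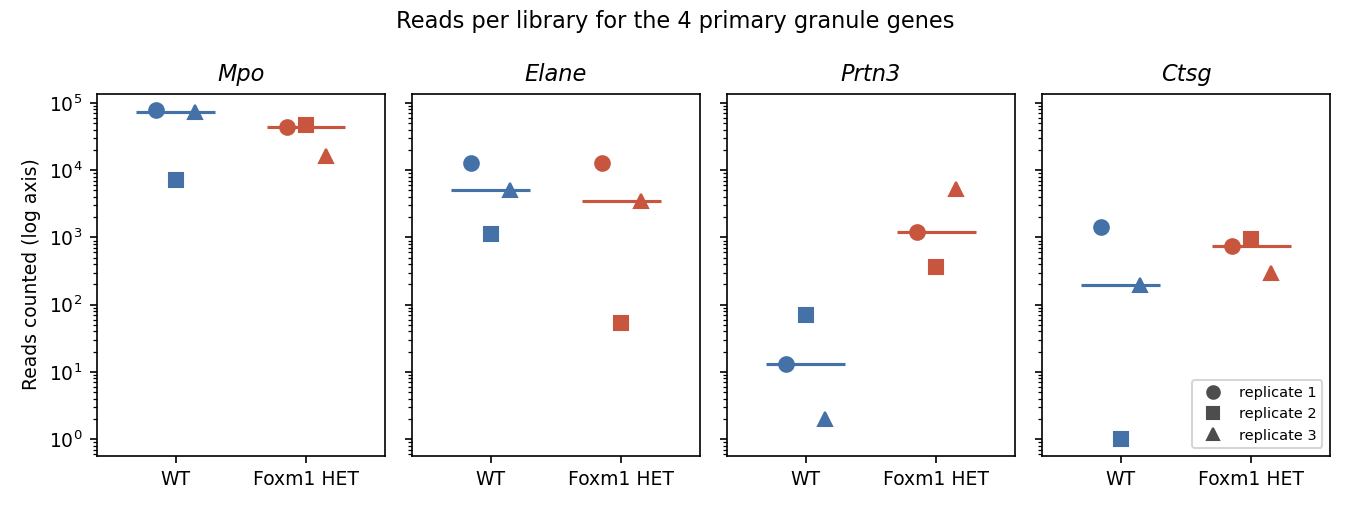
Reads counted for each gene (vertical axis, log scale) in each library, with replicate numbers as symbols and the group median as a bar. Prtn3 lies between 2 and 71 reads in WT and between 365 and 5247 in Foxm1 HET, while the groups overlap for the other 3 genes.

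Prtn3 encodes proteinase 3, a protease of broad specificity and a target of autoantibodies in vasculitis. Replicates 1 to 3 of WT held 13, 71 and 2 reads of it, and replicates 1 to 3 of Foxm1 HET held 1197, 365 and 5247, the order kept for all values given here. The lowest Foxm1 HET library thus held more reads than the 3 WT libraries together, and WT replicate 3 was under the floor of 3 reads at which a gene is treated as not detected. On the scale of log2 CPM (counts scaled to a common library size by TMM) Prtn3 averaged -0.42 ± 1.99 (SD, n = 3) in WT, and its Foxm1 HET mean was 5.89 ± 1.001 (SD, n = 3). edgeR fitted a 55.0-fold difference, or 5.78 on the log2 scale with a standard error of 3.001, at an adjusted p of 0.844 (unadjusted 0.0540). Both ranges stayed apart, and the two-sided exact permutation test gave p = 0.1, which is the lowest value open to a design of this size. Of all genes tested, 8.68% did not overlap in either direction and 4.12% did so with higher values in Foxm1 HET.

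In the deposited normalized table, which is on a log2 scale, Prtn3 had 1.33, 2.88 and 1.75 in WT against 6.81, 6.41 and 9.24 in Foxm1 HET. Every Foxm1 HET value lay above every WT value on this scale too, as for 5.87% of its 12179 genes (9.64% without overlap in either direction). Dropping single libraries moved its log2 fold change between 5.08 and 7.58, and it was 5.96 without Foxm1 HET replicate 2, the shallowest library. DESeq2 gave a log2 fold change of 6.03 with an adjusted p of 0.0109, and over the alternatives tried the adjusted p ran from 0.0109 to 1. No 50-base stretch of Prtn3 transcripts occurs in another GENCODE gene, and no exon base belongs to another counted gene.

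Elane encodes neutrophil elastase, the protease mutated in congenital and cyclic neutropenia. It had 13009, 1134 and 5126 reads in the 3 WT libraries against 12594, 53 and 3510 in the Foxm1 HET libraries. The highest libraries of the genotypes were alike in unscaled reads, and the low mean of Foxm1 HET came with the 53 reads of replicate 2. Elane averaged a log2 CPM of 7.69 ± 1.85 (SD, n = 3) in WT against 5.90 ± 2.69 (SD, n = 3) for Foxm1 HET, in overlapping groups (p = 0.5, two-sided exact permutation test). The fitted log2 fold change was -1.18 with a standard error of 1.66 and an adjusted p of 0.998 in edgeR's test. Leaving out single libraries gave -2.65 (without Foxm1 HET replicate 1) to -0.26 (without WT replicate 1), with -0.56 without Foxm1 HET replicate 2. The normalized table listed 10.75, 6.68 and 8.96 in WT against 10.31, 4.93 and 8.68 in Foxm1 HET.

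Mpo encodes myeloperoxidase, the most abundant protein of the primary granule. It was counted 78639, 7235 and 73305 times in WT and 43606, 46734 and 16070 times in Foxm1 HET. By unscaled reads WT replicate 2 was the lowest of the 6 libraries and the other WT libraries were the highest, so that the Foxm1 HET counts fell between them. On the scale of log2 CPM the highest was Foxm1 HET replicate 2, at 12.78 against 12.13 in WT replicate 3. Mean log2 CPM of Mpo was 10.73 ± 2.12 (SD, n = 3) for WT and 10.49 ± 2.14 (SD, n = 3) for Foxm1 HET (p = 1, two-sided exact permutation test). The log2 fold change was 0.05 with a standard error of 1.17 and an adjusted p of 0.998 in edgeR's test, while the difference of the means of log2 CPM was -0.24. The direction also turned with library-size scaling, where the log2 fold change was -0.46, without WT replicate 2 (-0.50) and without Foxm1 HET replicate 2 (-1.81). The normalized table gave 11.84, 7.98 and 11.10 in WT against 10.63, 10.86 and 9.44 in Foxm1 HET.

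Ctsg encodes cathepsin G, which cleaves after aromatic and basic residues. Its reads were 1452, 1 and 196 in WT against 747, 941 and 295 in Foxm1 HET. By unscaled reads WT held both the highest and the lowest library, and replicate 2 of WT was under the floor of 3 reads. On the scale of log2 CPM the highest was Foxm1 HET replicate 2, at 7.15 against 6.00 in WT replicate 1. Ctsg averaged 2.19 ± 4.67 log2 CPM (SD, n = 3) in WT against 4.74 ± 2.21 (SD, n = 3) for Foxm1 HET, and the groups overlapped (p = 0.5, two-sided exact permutation test). The log2 fold change of 1.14 had a standard error of 2.39 and an adjusted p of 0.998 in edgeR's test, and it was -0.90 without Foxm1 HET replicate 2. The normalized table listed 7.39, 0.96 and 4.61 in WT against 5.76, 7.27 and 3.50 in Foxm1 HET.

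**Figure D2:**
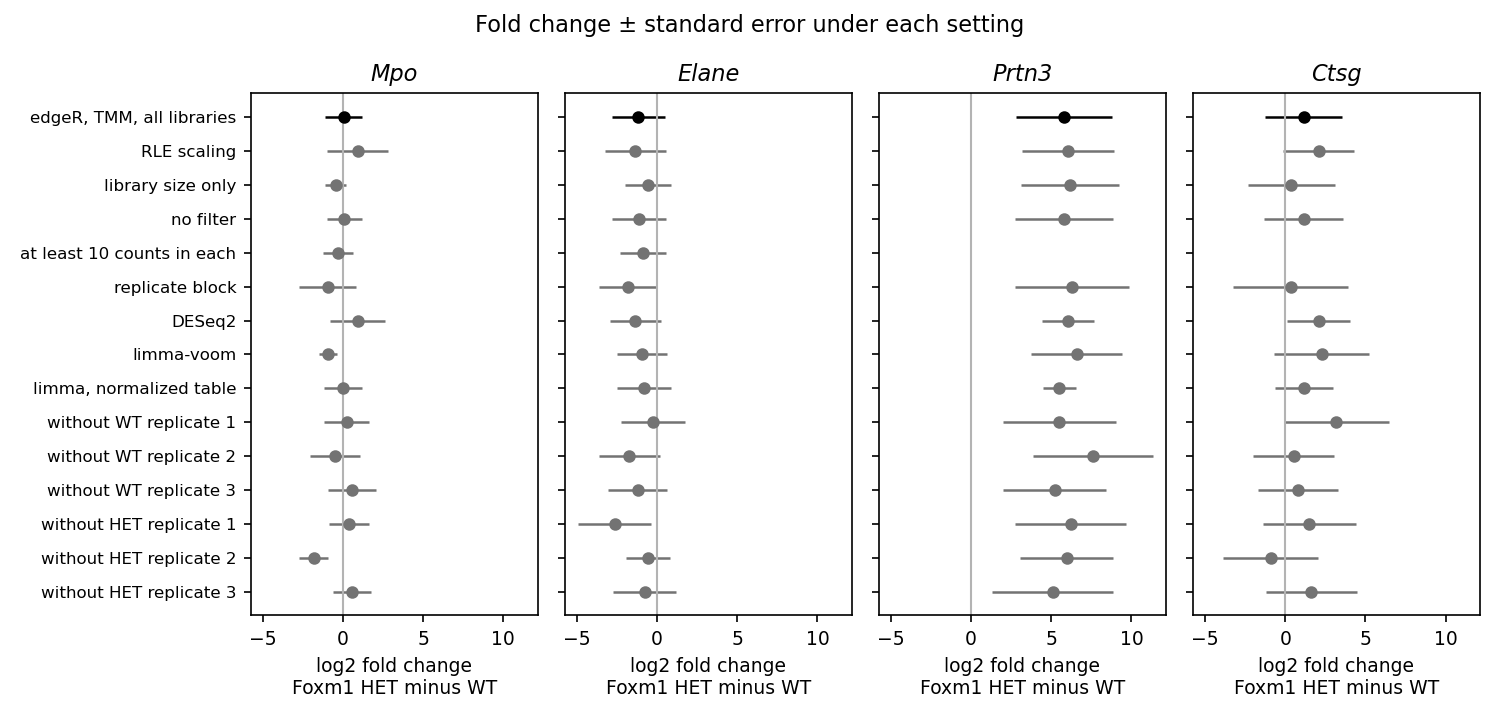
Log2 fold change of each gene (Foxm1 HET minus WT, points) with its standard error (bars) under each processing setting, the setting used in the report in black. Prtn3 stays between 5.08 and 7.58 throughout and has no value with at least 10 counts in every library, while Mpo and Ctsg cross 0.

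The spread within a genotype was not unusual for these libraries. The SD of log2 CPM in WT was above the median of all tested genes (2.999) for Ctsg and below it for Mpo, Elane and Prtn3. In Foxm1 HET the SD of Prtn3, 1.001, was larger than that of only 12.5% of tested genes, and those of Elane (2.69), Ctsg (2.21) and Mpo (2.14) were under the median of 2.81.

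Levels of different genes were compared per length, as TPM (length-scaled transcript abundance) computed from the counts and summed exon lengths. Mpo ranked 13, 393 and 22 among the detected genes of WT replicates 1 to 3 and 30, 25 and 88 in Foxm1 HET, with 286.8 TPM at its lowest and 3350 at its highest. Elane was second in every WT library, at 1534, 124 and 519 TPM. It was also second in Foxm1 HET replicate 1, at 1126 TPM, but last in replicate 2 at 8.69 and below Prtn3 in replicate 3 at 353. Prtn3 had 1.45, 7.37 and 0.192 TPM in WT against 101, 56.6 and 499 in Foxm1 HET. Ctsg stood at 157, 0.101 and 18.2 TPM in WT and at 61.3, 142 and 27.2 in Foxm1 HET. The ranges of Elane and Ctsg overlapped in Foxm1 HET, and differences in level between the genes were not tested.

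**Figure D3:**
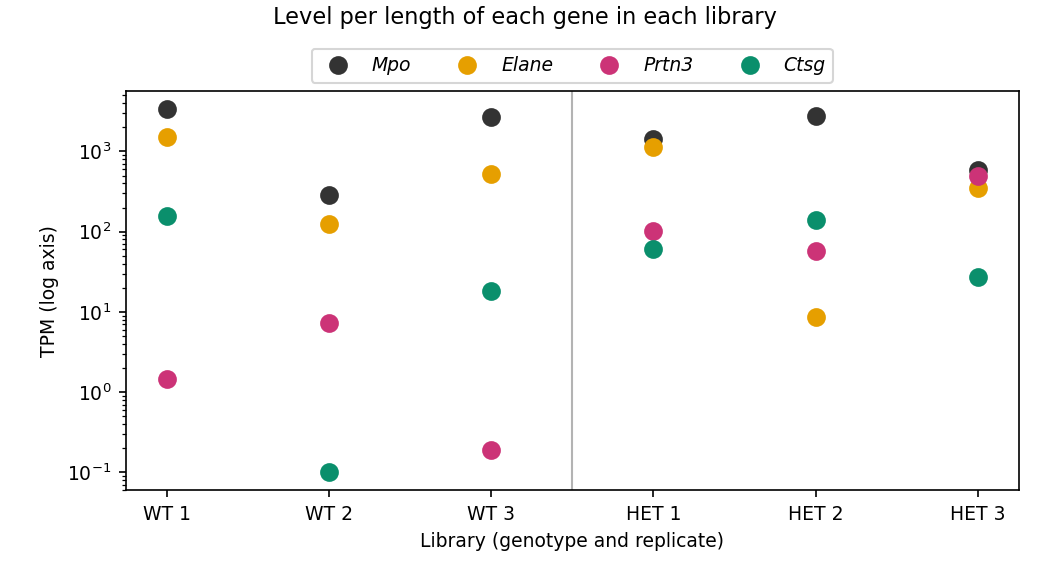
TPM of the 4 genes (vertical axis, log scale) in each library. Mpo is the highest in every library, Prtn3 is at most 7.37 in WT and at least 56.6 in Foxm1 HET, and Elane drops to 8.69 in Foxm1 HET replicate 2.

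The makeup of the 4 transcripts changed from library to library. Mpo made up 66.4%, 68.5% and 83.3% of their summed TPM in WT against 52.2%, 93.0% and 39.9% in Foxm1 HET. Prtn3 made up 0.0288%, 1.76% and 0.00595% in WT against 3.76%, 1.90% and 34.1% in Foxm1 HET. The ratio of Elane to Prtn3, which was looked at after their values were seen and was not tested, was 1057, 16.9 and 2708 in WT against 11.1, 0.153 and 0.707 in Foxm1 HET. These are ratios within a library and so do not depend on the scaling of libraries. In WT they rest on 13, 71 and 2 reads of Prtn3, close to the limit of detection, so their size is imprecise. In Foxm1 HET replicate 2 the ratio rests on 53 reads of Elane. Whether the fold changes of the neighbours differ was not tested.

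The genes next to the 4 were read in the same way. Between Elane and Cfd, the complement factor D gene with 0 reads in all libraries, lies Gm19810, with 75, 0 and 200 reads in WT against 261, 1 and 78 in Foxm1 HET. On the other side of Prtn3, Lppr3 drew 357, 1 and 0 reads from the WT libraries and 1103, 455 and 644 from the Foxm1 HET ones, and its groups overlapped on the scale of log2 CPM. Ptbp1, which encodes a splicing regulator and lies just beyond, had 29456, 16167 and 10252 reads in the 3 WT libraries against 8533, 18058 and 11847 in the Foxm1 HET libraries. The lactoperoxidase gene Lpo, 2015 bases from Mpo, had 0 reads in all libraries. Gzme on 1 side of Ctsg also had 0, while Mcpt8, a basophil protease gene on the other side, was counted 40, 11736 and 2027 times in WT and 175, 2 and 5 times in Foxm1 HET. All neighbours that could be tested had an adjusted p above 0.05 by edgeR.

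The genes whose pattern over the 6 libraries was most like each of the 4 were found by the root mean square difference of log2 CPM, each gene centred on its own mean, among 8194 genes. For Mpo these were Cd33, a myeloid surface receptor, at 0.43 and Gm12854 at 0.53. Cd33 drew 1545, 90 and 2529 reads from the WT libraries and 793, 801 and 285 from the Foxm1 HET ones. Pygl, the liver-type glycogen phosphorylase, and Nt5c2, a nucleotidase, were nearest to Elane at 0.24 and 0.41. Myof, which encodes the membrane protein myoferlin, and Ppp2r3c, a phosphatase subunit, were nearest to Prtn3 at 0.57 and 0.64. Myof had 15, 35 and 4 reads in the 3 WT libraries against 1065, 553 and 6994 in the Foxm1 HET libraries. Sfmbt1 and Etf1 were nearest to Ctsg at 0.75 for each. The 4 genes were not nearest to each other, the closest pair being Mpo and Ctsg at 2.13, with Ctsg 1248th in the order from Mpo and Mpo 278th in the order from Ctsg. With 6 libraries and this many genes, some gene lies near any pattern, and likeness is given as a description only.

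Granule cargo, sorting and activation genes were examined next, with 7 of 9 tested, 3 higher and 4 lower in Foxm1 HET, a median log2 fold change of -0.45 and 0 past the adjusted threshold. Ctsc, the protease-activating peptidase, was counted 63, 1666 and 3505 times in WT and 1495, 1 and 889 times in Foxm1 HET. Srgn, the storage proteoglycan, drew 5915, 4808 and 438 reads from the WT libraries and 6475, 207 and 25814 from the Foxm1 HET ones. Lyz2, the myeloid lysozyme, had between 39749 and 77162 reads in WT and between 8161 and 96731 in Foxm1 HET, and 15.4% of its 50-base transcript stretches also occur in Lyz1. Calr and Canx, chaperones of myeloperoxidase folding, had log2 fold changes of -0.45 (standard error 1.78) and 0.77 (standard error 1.73), and 38.9% of the exon bases of Calr belong also to another counted gene. Prss57, a further granule serine protease with 43.0% of its exon bases in Fstl3, exceeded 10 reads in WT replicate 3 only, at 1124. The bactericidal protein gene Bpi had 0 reads in all libraries.

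Of 5 genes of granule exocytosis, 4 were tested, with 1 higher and 3 lower and a median log2 fold change of -2.13, and none had an adjusted p under 0.05. On the scale of log2 CPM, Vamp8 and Unc13d had lower values in Foxm1 HET without overlap, while the unscaled reads of Unc13d overlapped. Of all genes tested, 8.68% had no overlap on this scale in either direction, 4.12% with higher values in Foxm1 HET. Vamp8, a vesicle fusion protein, had 4028, 7102 and 1671 reads in the 3 WT libraries against 1446, 2 and 106 in the Foxm1 HET libraries (log2 fold change -3.88, standard error 2.13, adjusted p = 0.888 in edgeR's test). Unc13d, a priming factor for secretion, was counted 1308, 4521 and 4806 times in WT and 207, 3 and 1999 times in Foxm1 HET. The small GTPase gene Rab27a drew 2801, 6820 and 28 reads from the WT libraries and 1411, 42914 and 3458 from the Foxm1 HET ones, with an adjusted p of 0.399.

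Both tested genes of the 3 that inhibit granule proteases had lower fitted levels in Foxm1 HET without an adjusted p under 0.05. Serpinb1a, an inhibitor of elastase, cathepsin G and proteinase 3, had 924, 3 and 6990 reads in the 3 WT libraries against 453, 4 and 992 in the Foxm1 HET libraries, and 21.4% of its exon bases are shared with another counted gene. Slpi exceeded the floor in WT replicate 2, with 204 reads, and Foxm1 HET replicate 1, with 36.

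All 6 genes of the NADPH oxidase were tested, with 3 higher and 3 lower, a median log2 fold change of -0.10 and 0 adjusted p under 0.05. Cybb, its catalytic subunit, had between 13795 and 17556 reads in WT against 19126, 14305 and 277 in Foxm1 HET, and 12.02% of its exon bases lie also in another counted gene. Cyba, the partner of Cybb in the membrane, was counted 576, 168 and 2711 times in WT and 62, 1 and 219 times in Foxm1 HET. Its unscaled reads overlapped, but its groups did not overlap on the scale of log2 CPM (log2 fold change -4.84, standard error 2.89, adjusted p = 0.934 in edgeR's test). The same held for 8.68% of all genes tested on that scale, in either direction.

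Among 6 transcription factors known to bind the promoters of these genes, 4 were tested, with 2 higher and 2 lower and 0 adjusted p under 0.05. Gfi1, a repressor needed for granulocyte formation, drew 6, 2 and 118 reads from the WT libraries and 786, 2053 and 36 from the Foxm1 HET ones (log2 fold change 5.45, standard error 2.65, adjusted p = 0.776 in edgeR's test), and its groups overlapped. Spi1 had 483, 465 and 4502 reads in the 3 WT libraries against 1763, 1657 and 368 in the Foxm1 HET libraries, a log2 fold change of -0.06. Runx1 was lower in Foxm1 HET without overlap on the scale of log2 CPM (8.68% of all genes in either direction). Its log2 fold change was -1.25 with a standard error of 1.49 and an adjusted p of 0.998 in edgeR's test. The unscaled reads of Runx1 overlapped, at 12889, 14106 and 14008 in WT against 10869, 1587 and 14518 in Foxm1 HET. Myb had between 4498 and 15156 reads in WT and between 8404 and 23214 in Foxm1 HET. Cebpa was counted 4, 1 and 0 times in WT and 250, 0 and 245 times in Foxm1 HET and had too few reads to be tested, and Cebpe exceeded the floor in WT replicate 3 only, with 104.

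**Figure D4:**
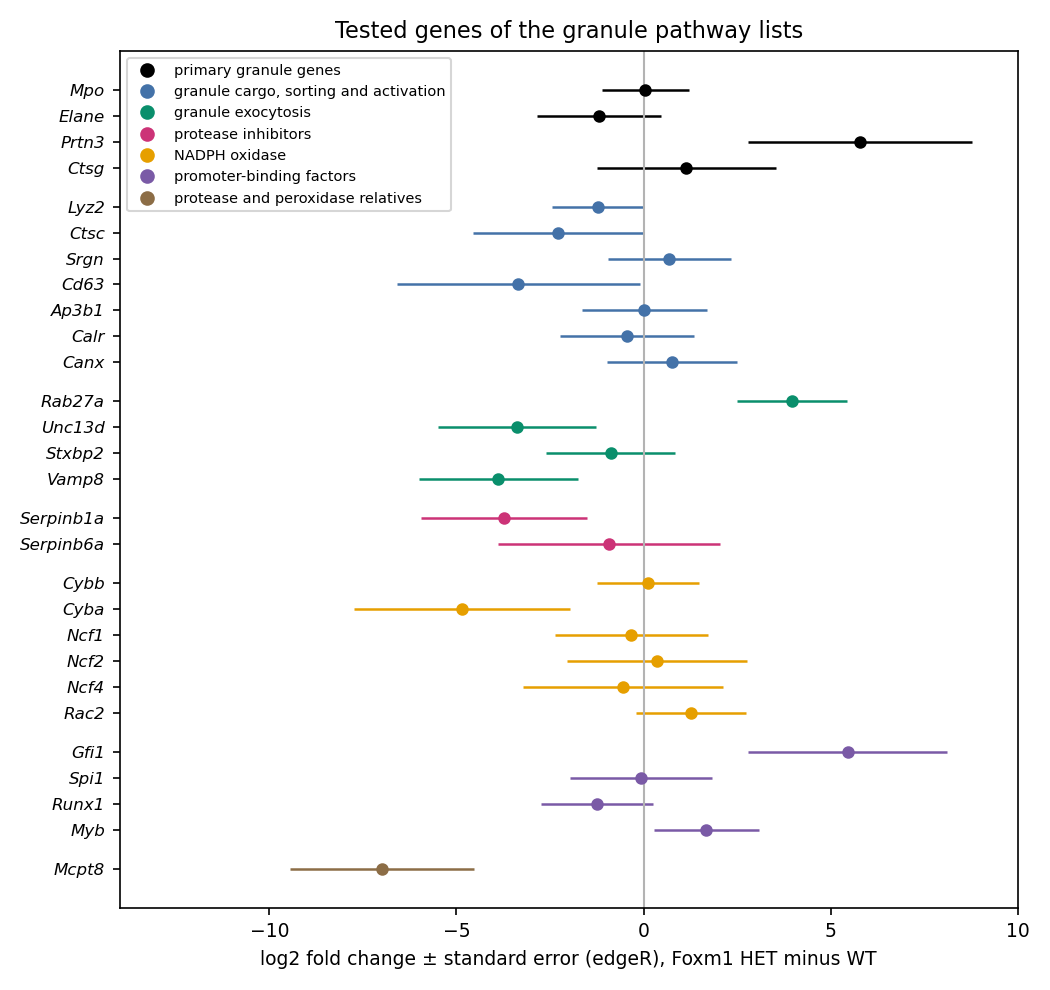
Log2 fold change (Foxm1 HET minus WT, points) and its standard error (bars) from edgeR for the tested genes of each list, coloured by list. None of them has an adjusted p under 0.05, and Prtn3, at 5.78, has the largest positive value among them.

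Markers of the other cell types that a stem cell sort could hold were read beside the 4 genes, as summed CPM scaled by library size. The summed CPM of the 4 genes was 4638, 366.8 and 3653 in WT against 2284, 3300 and 973.8 in Foxm1 HET, most of it Mpo. TMM scaling raised the sums of Foxm1 HET replicate 2, to 7254 for the 4 genes (the highest of the 6 libraries), 11350 for neutrophil markers and 11513 for LT-HSC markers. The sums that follow are by library size. Mature neutrophil markers were abundant, with all 10 detected, at 5113 to 12274 in WT and 624 to 6473 in Foxm1 HET, lowest in Foxm1 HET replicate 3. That library had the most Prtn3 reads and the fewest Mpo reads of its group. Foxm1 HET values were higher for 2 and lower for 7 of the 9 neutrophil markers tested, with 0 adjusted p under 0.05. Markers of granulocyte-monocyte progenitors summed to 532 to 1560 in WT and 207 to 625 in Foxm1 HET. Of 6 tested, 1 was higher and 5 lower in Foxm1 HET, with a median log2 fold change of -2.06 and 0 adjusted p under 0.05. Csf3r, the G-CSF receptor gene, was lower without overlap on the scale of log2 CPM (-2.80, standard error 1.598), as 8.68% of all genes were without overlap in either direction. Its unscaled reads overlapped, at 6584, 3693 and 29283 in WT against 3856, 584 and 5733 in Foxm1 HET. The untested Ms4a3 exceeded 3 reads in Foxm1 HET replicate 1 only, with 727. LT-HSC markers summed to 2993 to 6418 in WT and 4352 to 5831 in Foxm1 HET. The part of the neutrophil and progenitor RNA in the levels of the 4 genes was not tested.

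Markers of other lineages were summed in the same way. Eosinophil, basophil and mast cell markers summed to 6.52 to 539 in WT and 0.233 to 111 in Foxm1 HET, and erythroid markers to 101 to 181 and 196 to 285, with Hba-a1 at 0 reads. B cell markers summed to 252 to 2011 in WT and 21.4 to 334 in Foxm1 HET, with Cd79a, Ebf1 and Vpreb1 at 0. T and NK cell markers reached at most 17.2 in WT and 124 in Foxm1 HET, with Cd3g at 0, and megakaryocyte markers at most 7.80 and 11.9.

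**Figure D5:**
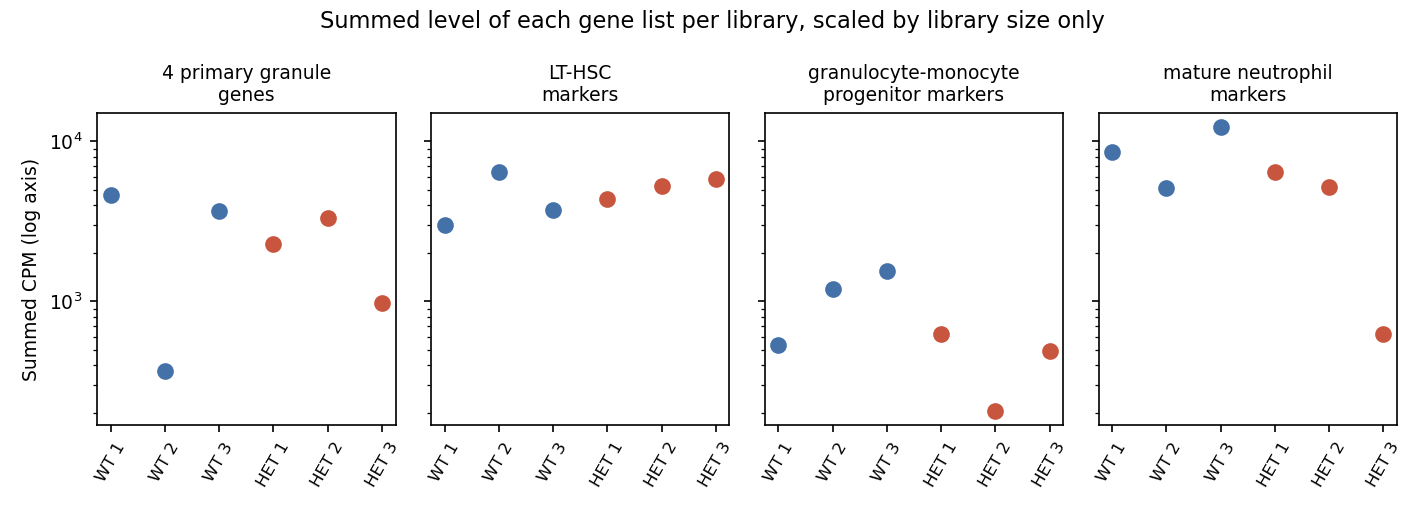
Summed CPM (vertical axis, log scale, library-size scaling) of the 4 primary granule genes and of 3 marker lists in each library, WT in blue and Foxm1 HET in red. Neutrophil markers are lowest in Foxm1 HET replicate 3, at 624, and the 4 genes are lowest in WT replicate 2, at 366.8.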

How the data were processed

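Total RNA from sorted LT-HSCs was sequenced with single reads of 50 bp, and reads were trimmed and aligned to GRCm38 with STAR 2.7.2b, per the labels and the methods. The methods name a Clontech library kit and the labels a stranded total RNA kit, and the counting program and its use of strand are not given in the sources used here. Raw read counts of 27179 genes were deposited by the authors. They also deposited normalized log2 values of 12179 genes. The libraries of the normalized table share 1 maximum, and their genes rank as counts divided by gene length, with 0 genes over 1 rank off. The normalization is not described, though limma is named in the submitters' processing notes.

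Gene symbols were those the normalized table pairs with 12179 identifiers, and RefSeq (GRCm38.p6) named a further 13383. Genes with low counts were removed by edgeR's default filter, which kept 8195 genes and all 4 described here, libraries were scaled by TMM, and Foxm1 HET was compared with WT by the quasi-likelihood test of edgeR 4.0.16 in R 4.3.3, with Benjamini-Hochberg adjustment over all genes kept. Standard errors were obtained from F, as the fold change on the log2 scale over its square root. Log2 CPM used a prior count of 2. Single genes were also compared by a two-sided exact permutation test. The alternatives were scaling by RLE or by library size, leaving the filter out, requiring 10 counts throughout, a replicate block, each library left out, DESeq2 1.42.0, limma-voom (limma 3.58.1) and limma on the normalized table.

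The 4 genes and all lists were chosen with earlier results of these data known, and the lists come from general knowledge. For each of the 4, the 2 genes of most similar pattern were named, with every listed gene open to be named. Reads carry no molecular identifiers, and the spread between libraries limits the precision more than counting error does. Its size, the biological coefficient of variation over all genes, was 1.66. Of the listed genes, 1 is not reported here.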

Additional observations from a re-analysis of the deposited data

How the results depend on the processing

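Prtn3 and Elane kept their direction under all alternatives that gave them a value, and Prtn3 passed the threshold under 1 of them, DESeq2 (log2 fold change 6.03), which made 1 of the 4 genes called in place of 0. At an unadjusted p of 0.05, 1 of the 4 passed, Prtn3, with RLE scaling (587 of all 8195 genes), library-size scaling (313), DESeq2 (829), limma-voom (271), limma on the normalized table (576 of 12179) and without WT replicate 2 (549 of 9603). With at least 10 counts in every library Prtn3 and Ctsg were not tested, because 1 library of each had fewer than 10 reads. The log2 fold change of Mpo was negative with library-size scaling (-0.46), with at least 10 counts in every library (-0.34), with the replicate block (-0.95) and with limma-voom (-0.94). Leaving out each library in turn gave -1.81 to 0.57 for Mpo and -0.90 to 3.19 for Ctsg, lowest without Foxm1 HET replicate 2 for both, and -2.65 to -0.26 for Elane. The cause was not tested. The number of members whose groups do not overlap, 1, was kept under RLE scaling, a prior count of 0.5 and the normalized table. All of these scales are drawn from the same 6 libraries. Over all genes, 8.68% did not overlap in either direction on log2 CPM with TMM, and 9.64% did not in the normalized table.

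Over all genes the number with an adjusted p under 0.05 was 27 (26 higher), against 10 with RLE scaling (10 higher), 7 with library size only (6 higher), 194 with DESeq2 (116 higher) and 4 with limma-voom (0 higher). It was 0 with at least 10 counts in every library (157 at an unadjusted p under 0.05) and 0 with limma on the normalized table (576). Leaving out 1 library gave 0 to 29, with 0 without WT replicate 1 (615), WT replicate 2 (549) or Foxm1 HET replicate 2 (626) and 1 without WT replicate 3. With the replicate block it was 0 (108). Same-numbered libraries did not deviate together (r across genes 0.02, -0.03 and -0.07 for numbers 1, 2 and 3). With the spread between libraries this large, these values cannot tell whether same-numbered libraries came from a pair of mice. The median log2 fold change of all genes was -0.26 with TMM, -0.13 with RLE and 0.08 with library size only.

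At 1 to 71 reads, Prtn3 in WT and Ctsg in WT replicate 2 are close to the limit of detection.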

Other observations

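Several relatives of the 4 genes in the peroxidase, granzyme, mast cell protease and factor D families were at 0 reads in all 6 libraries, namely Lpo, Gzmb, Gzmc, Mcpt4, Cma1 and Cfd. Epx, Pxdn and Gzma were each above 3 reads in 1 library only. Eosinophil peroxidase (Epx) had 581 reads in Foxm1 HET replicate 1, where the eosinophil granule protein gene Prg2 had 781. Peroxidasin (Pxdn) had 499 reads in WT replicate 1, and granzyme A (Gzma), a protease of cytotoxic lymphocytes, 202 in WT replicate 2. Of the relatives named here, Mcpt8 alone had enough reads to be tested (log2 fold change -6.99, standard error 2.46, adjusted p = 0.321 in edgeR's quasi-likelihood test), and its groups overlapped.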
